A study of Mus musculus with 6 samples.

Results

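Tumour necrosis factor and the 4-1BB pair were followed through 7 genes of mouse skin. The set, taken by symbol from the gene table of 32285 genes, holds the cytokine Tnf, its receptors Tnfrsf1a and Tnfrsf1b, the feedback inhibitors Tnfaip3 and Nfkbia, the ligand Tnfsf9 and its receptor Tnfrsf9. All 7 symbols were found, each once. The 7 genes were selected on their measured values, the levels per cell class and the differences between the groups in these libraries, so those differences are given as a description, with no p-value for any 1 of them. How many passed a threshold is printed only beside the share of all genes that did, and nothing is read from those counts, nor from whether a call was kept under another setting. Tnf (ENSMUSG00000024401) lies at chr17:35199381-35202007 and Tnfsf9 at chr17:57105325-57107757 in mm10 (GENCODE M21). Tnfrsf1b lies at chr4:145213463-145246870 and Tnfrsf9 at chr4:150914562-150946102. Tnfrsf1a lies at chr6:125349362-125362484, Tnfaip3 at chr10:19000910-19015657 and Nfkbia at chr12:55489410-55492647. All 7 are annotated as protein-coding, and the 3′ tag counts cover a whole gene.

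TNF is made as a membrane protein that a protease releases, and mast cells, macrophages and T cells are its classical sources. Its first receptor, encoded by Tnfrsf1a, carries a death domain and is found on most cells, whereas the second, encoded by Tnfrsf1b, is found mainly on leukocytes and endothelium. Both can activate NF-kB, which in turn induces Nfkbia, whose product IκBα holds NF-kB in the cytoplasm, and Tnfaip3, whose product A20 is a ubiquitin-editing enzyme that ends the signal. 4-1BB, the product of Tnfrsf9, is a costimulatory receptor of activated T cells, regulatory T cells and NK cells, and its ligand, encoded by Tnfsf9, is known from antigen-presenting cells. In skin, TNF acts on keratinocytes and endothelium and on the movement of dendritic and Langerhans cells.

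The tissue was skin of Balb/c mice taken 2 days after 10 days of epicutaneous treatment and digested with enzymes, and the same tissue label stands on controls and treated samples. There were 3 libraries with the treatment label control (titles EC-SAL) and 3 labelled OVA-sensitized (EC-OVA, written here as after OVA, for ovalbumin), all made with 10x Genomics 3′ chemistry (n = 3 per group throughout). The labels name no genotype beyond the strain, no age and no pooling, and they do not say whether the 3 libraries of a group came from separate mice, so SDs measure the spread between libraries. They give the cell type as CD4, but the kept cells were mostly keratinocytes and fibroblasts, and 154 of 13460 control cells and 266 of 10972 OVA-sensitized cells fell in the lymphoid class. Kept cells numbered 3405 to 4994 per library, with 21743490 to 28049562 unique molecular identifiers (UMIs). Any 2 libraries shared 14 to 37 cell barcodes, at most 0.881% of the smaller library. Classes were named from marker genes after clustering in which these 7 genes could take part, so the levels between classes are a description too. Levels are CPM, the UMIs of a gene per 1000000 UMIs of that class in that library.

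Levels were ordered over the 13 classes with at least 10 cells in every library, which leaves out neutrophils, basophils and others described separately. Among these 13, Tnf was highest in the macrophage and monocyte class, at 439 ± 307 CPM (mean ± SD over the 6 libraries). Next were dendritic and Langerhans cells at 87.5 ± 58.2 CPM, hair matrix and inner root sheath cells at 79.5 ± 12.6 CPM and lymphoid cells at 68.2 ± 26.8 CPM. The ranges of these 3 over the 6 libraries overlapped, so they are not ordered over both groups together. In controls every dendritic and Langerhans library (mean 136 CPM) lay above those of hair matrix (89.3 CPM) and lymphoid cells (54.6 CPM). After OVA every such library (mean 38.8 CPM) lay below them (69.7 and 81.9 CPM). Keratinocytes followed at 19.6 ± 1.99 CPM, below the lowest library of the lymphoid class. Fibroblasts held only 3.24 ± 1.53 CPM. A Tnf UMI was found in 601 of 5280 cells (11.4%, 95% interval 10.5 to 12.3%) of the control keratinocytes at a median of 7234 UMIs a cell. In control fibroblasts it was 31 of 2861 cells (1.08%, 95% interval 0.737 to 1.53%) at a median of 4491 UMIs. With each cell thinned to 1000 UMIs and shallower cells left out (154 and 144 cells), the shares were 1.66% (1.33 to 2.05%) and 0.368% (0.177 to 0.676%), so keratinocytes stayed above fibroblasts at 1 depth. Intervals here and below are exact Clopper-Pearson intervals and cover counting error only.

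The receptors were spread differently over the classes. Tnfrsf1a was present in all 13 classes, from 283 ± 23.2 CPM in vascular endothelium to 58.5 ± 38.9 CPM in lymphoid cells, and neighbours in that order overlapped throughout. Among the 13 classes Tnfrsf1b was highest in the macrophage and monocyte class at 195 ± 13.4 CPM. Its next classes were the lymphoid at 137 ± 24.6 CPM, whose range lay below that of the first, then dendritic and Langerhans cells at 92.3 ± 29.7 CPM and vascular endothelium at 72.5 ± 12.1 CPM. Keratinocytes were close to none, at 0.471 ± 0.336 CPM.

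Of the inhibitors, Nfkbia was highest among the 13 classes in vascular endothelium at 6472 ± 464 CPM, without overlap with the classes below it. Lymphatic endothelium at 4323 ± 556 CPM and pericytes with smooth muscle at 4225 ± 299 CPM came next. Tnfaip3 was highest in pericytes and smooth muscle at 385 ± 29.9 CPM and in vascular endothelium at 351 ± 42.7 CPM, whose ranges overlapped. The macrophage and monocyte class and the dendritic and Langerhans class led for neither. Neutrophils, outside this order, held 7162 CPM of Nfkbia after OVA.

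The 4-1BB ligand Tnfsf9 was found in dendritic and Langerhans cells at 183 ± 131 CPM, in pericytes and smooth muscle at 167 ± 46.3 CPM and in fibroblasts at 118 ± 24.9 CPM, 3 classes with overlapping ranges. Fibroblasts, 21.3% of control and 28.8% of OVA-sensitized cells, held 55.6% of all Tnfsf9 UMIs of control cells and 64.7% of those of OVA-sensitized cells. The receptor Tnfrsf9 was highest in lymphoid cells at 539.9 ± 116 CPM, with dendritic and Langerhans cells next at 66.8 ± 63.3 CPM and below it without overlap. The macrophage and monocyte class held 3.84 ± 5.33 CPM, and Schwann, lymphatic, sebocyte and tendon classes had 0 UMIs in every library.

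**Figure D1:**
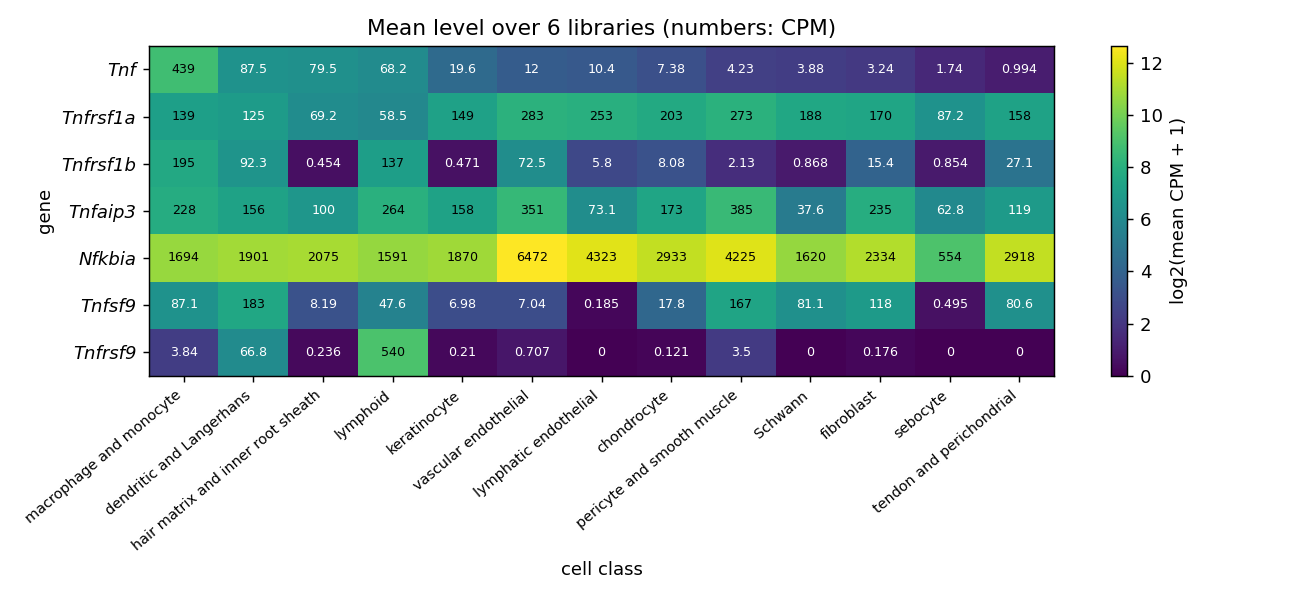
Mean level of each gene (rows) in 13 cell classes (columns), over the 6 libraries, coloured by log2(mean CPM + 1) with the CPM printed in each cell. Tnf peaks in the macrophage and monocyte column at 439 CPM and Tnfrsf9 in the lymphoid column at 539.9 CPM, while Nfkbia is lowest in sebocytes at 554 CPM.

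Counted by molecules rather than by level, keratinocytes were a large holder of Tnf. They held 41% of the Tnf UMIs of control cells, with 39.2% of the cells, and 36.1% in the OVA-sensitized group, with 21.8% of the cells. Myeloid cells held 36% of them with 5.63% of the cells in controls and 24.2% with 11.4% of the cells after OVA. For Tnfrsf9, lymphoid cells held 63% of the UMIs in controls and 83.1% after OVA, and myeloid cells held most of the rest.

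**Figure D2:**
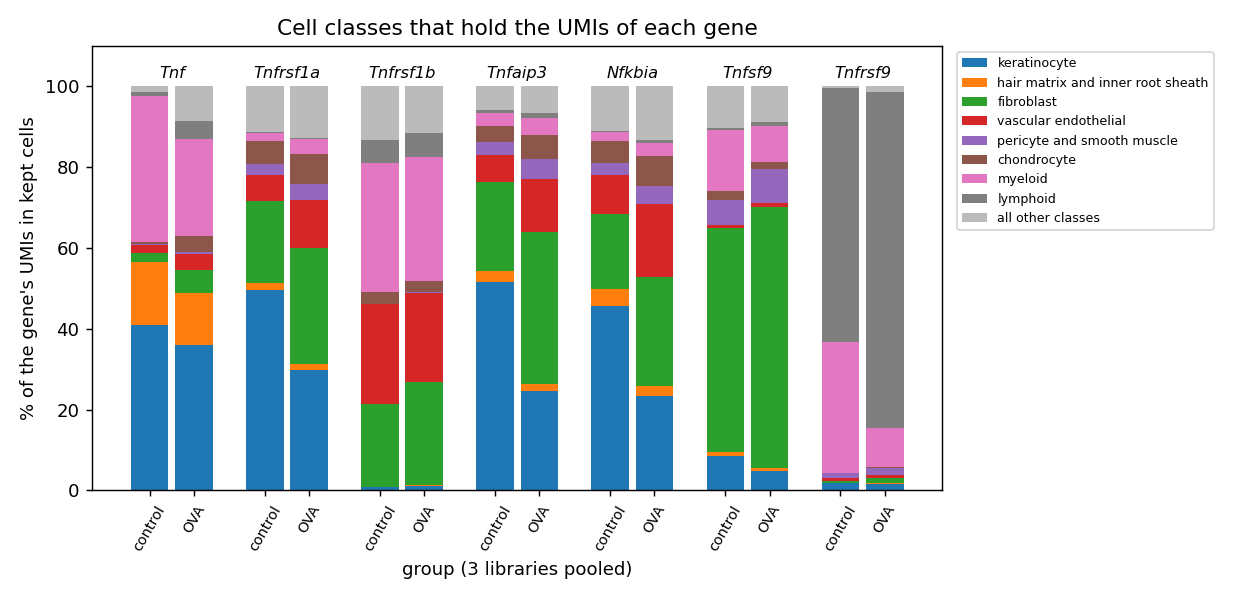
Share of the UMIs of each gene held by each cell class, in percent, for control and OVA-sensitized cells with 3 libraries pooled per bar. The myeloid part of the Tnf bar is 36% in controls and 24.2% after OVA, and the lymphoid part dominates both Tnfrsf9 bars.

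Tnf and Nfkbia, 2 genes whose level differed between the groups in myeloid cells, are shown with the 250 bases before their transcription start, from RefSeq on GRCm38.p6. Windows were found for 6 of the 7 genes, and Tnfsf9 had none in that table. Each window was searched on both strands for the NF-kB consensus of 10 bases. A match stood in 3.90% of the 32851 windows of the table. Capitals mark the match in Nfkbia (chr12:55492648-55492897, minus strand, 5′ to 3′). The Tnf window (chr17:35202008-35202257, minus strand) holds no match, which says only that the consensus letters are not in these 250 bases.
Nfkbia: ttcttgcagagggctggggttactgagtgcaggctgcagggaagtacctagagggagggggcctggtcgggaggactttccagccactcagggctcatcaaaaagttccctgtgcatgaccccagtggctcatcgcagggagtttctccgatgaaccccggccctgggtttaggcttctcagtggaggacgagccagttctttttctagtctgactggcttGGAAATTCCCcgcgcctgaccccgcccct
Tnf: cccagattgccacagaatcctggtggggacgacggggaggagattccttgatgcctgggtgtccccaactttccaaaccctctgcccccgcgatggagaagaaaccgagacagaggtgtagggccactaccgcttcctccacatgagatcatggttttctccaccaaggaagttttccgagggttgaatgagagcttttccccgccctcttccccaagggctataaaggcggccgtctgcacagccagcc
Tnfaip3 had 2 matches in one of its windows, GGGACACCCC and GGAAATCCCC, as 0.493% of all windows had at least 2. One window of Tnfrsf9 held GGGGATTTCC and GGGATTTCCC, which overlap. The windows of Tnfrsf1a and Tnfrsf1b held none.

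In the macrophage and monocyte class, which held 493 control and 740 OVA-sensitized cells, Tnf was 619, 814 and 698 CPM in control libraries 1 to 3. In OVA-sensitized libraries 1 to 3 it was 124, 133 and 242 CPM. Every OVA-sensitized library lay below every control library, and the means were 711 ± 98.2 CPM and 167 ± 65.4 CPM, a log2 fold of -2.10 ± 0.20 SE or 4.29-fold lower. The 4-1BB ligand was also lower: Tnfsf9 was 106, 216 and 121 CPM in the controls and 15.2, 15.3 and 48.8 CPM after OVA, a log2 fold of -2.46 ± 0.35 SE. OVA-sensitized library 3 was the highest of its group, and without it the log2 fold was -3.23. Nfkbia was 2086, 2132 and 1999 CPM in the controls and 1433, 1212 and 1305 CPM after OVA, a smaller difference of -0.67 ± 0.11 SE on the log2 scale, again without overlap.

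For the TNF receptors and A20 the groups overlapped in this class. Tnfrsf1b was 208, 197 and 196 CPM in the controls and 180.1, 179 and 212 CPM after OVA (log2 fold -0.08 ± 0.16 SE). Tnfaip3 was 225, 299 and 239 CPM and 185, 179 and 242 CPM, and Tnfrsf1a 189.9, 157 and 135 CPM and 157, 87.5 and 109 CPM, both with overlapping groups. Without OVA-sensitized library 1, the log2 fold of Tnfrsf1a went from -0.48 ± 0.21 SE to -0.72 and passed the threshold. Tnfrsf9, with 5 UMIs in all control and 2 in all OVA-sensitized cells of the class, was below the filter on low counts. Past an adjusted p of 0.05 in edgeR's quasi-likelihood test were 3 of the 6 genes tested, all lower after OVA, and of all genes tested in this class 5.34% passed in that direction.

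Monocytes made up 24 of the 493 control and 204 of the 740 OVA-sensitized cells of this class, with 23 and 29 Tnf UMIs. Their Tnf was 186, 0 and 794 CPM in the controls, with 19 of the 23 UMIs in library 3, and 27.6, 24.5 and 124 CPM after OVA, so the groups overlapped. Macrophages alone, 469 and 536 cells, showed the difference as well. Their Tnf was 655, 868 and 689 CPM in the controls and 181, 194 and 319 CPM after OVA, a log2 fold of -1.69 ± 0.20 SE with no overlap. The class joins 2 clusters, and Tnf was the first of the genes that led one of them, so that cluster was drawn partly on Tnf. The Tnf-led cluster held 50.6, 56.4 and 49.7% of control macrophages in libraries 1 to 3 and 17.2, 21.6 and 28.2% of OVA-sensitized ones, the other cluster the rest. These shares are given only to name the clusters and are no result, since the clusters were drawn on a gene that differed. Within the other cluster, led by Ccl8, Tnf was 263, 235 and 245 CPM in the controls and 119, 58.4 and 114 CPM after OVA, and within the Tnf-led cluster 1081, 1419 and 1181 CPM and 627, 797 and 1016 CPM. Nothing is read from Tnf within the clusters, since the split between them was made partly on Tnf. Tnfsf9 in macrophages was 114, 231 and 129 CPM against 16.1, 17 and 53.8 CPM (log2 fold -2.44 ± 0.39 SE, or -3.21 without OVA-sensitized library 3), and Nfkbia 2059, 2135 and 2060.2 CPM against 1132, 1141 and 1334 CPM, also without overlap. Tnfrsf1a, whose product carries the death domain, was 202, 164 and 136 CPM against 112, 71.5 and 92.3 CPM in macrophages, a log2 fold of -0.89 ± 0.22 SE. Tnfrsf1b overlapped there, at 206 ± 3.40 CPM and 201 ± 11.6 CPM.

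Fewer macrophages held a Tnf UMI after OVA. The share was 210 of 469 cells (44.8%, 95% interval 40.2 to 49.4%) in controls and 109 of 536 cells (20.3%, 95% interval 17 to 24%) after OVA, at medians of 1326 and 1085 UMIs a cell. By library it was 39.9 to 49.4% in controls and 18.9 to 23.2% after OVA, without overlap. Thinned to 1000 UMIs, with 146 control and 245 OVA-sensitized cells left out as shallower, the shares were 35.6% and 15.8%. In keratinocytes the unthinned share was the same in both groups within counting error, 11.4% and 11.2%.

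Levels of other genes of the set were set side by side for macrophages with and without a Tnf UMI, in cells pooled over the libraries of a group, a split made on Tnf itself and chosen after values were seen. In control macrophages Nfkbia was 2775 CPM with a Tnf UMI and 1492 CPM without, Tnfaip3 355 and 193 CPM, and Tnfsf9 281 and 48.9 CPM. After OVA the same pairs were 2176 and 980.4 CPM for Nfkbia, 453 and 179 CPM for Tnfaip3, and 81.1 and 16.8 CPM for Tnfsf9, the last from only 12 and 11 UMIs. Cells with a Tnf UMI were thus higher for these 3 genes in both groups, at median depths of 1404 and 1221 UMIs in controls and 1128 and 1081 UMIs after OVA. Tnfrsf1a in control macrophages was 143 CPM with and 188 CPM without a Tnf UMI (50 and 77 UMIs), and after OVA 115 and 85.5 CPM (17 and 56 UMIs). No direction is read from so few molecules. Tnfrsf1b was higher with a Tnf UMI in both, at 269 and 152 CPM in controls and 291 and 182 CPM after OVA. The same split of dendritic and Langerhans cells went the other way for Tnfrsf1b. There it was 99.7 CPM with and 128 CPM without a Tnf UMI in controls, and 40.9 (from 7 UMIs) and 71.8 CPM after OVA. Nfkbia, Tnfaip3 and Tnfsf9 were higher with a Tnf UMI there too, in both groups.

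**Figure D3:**
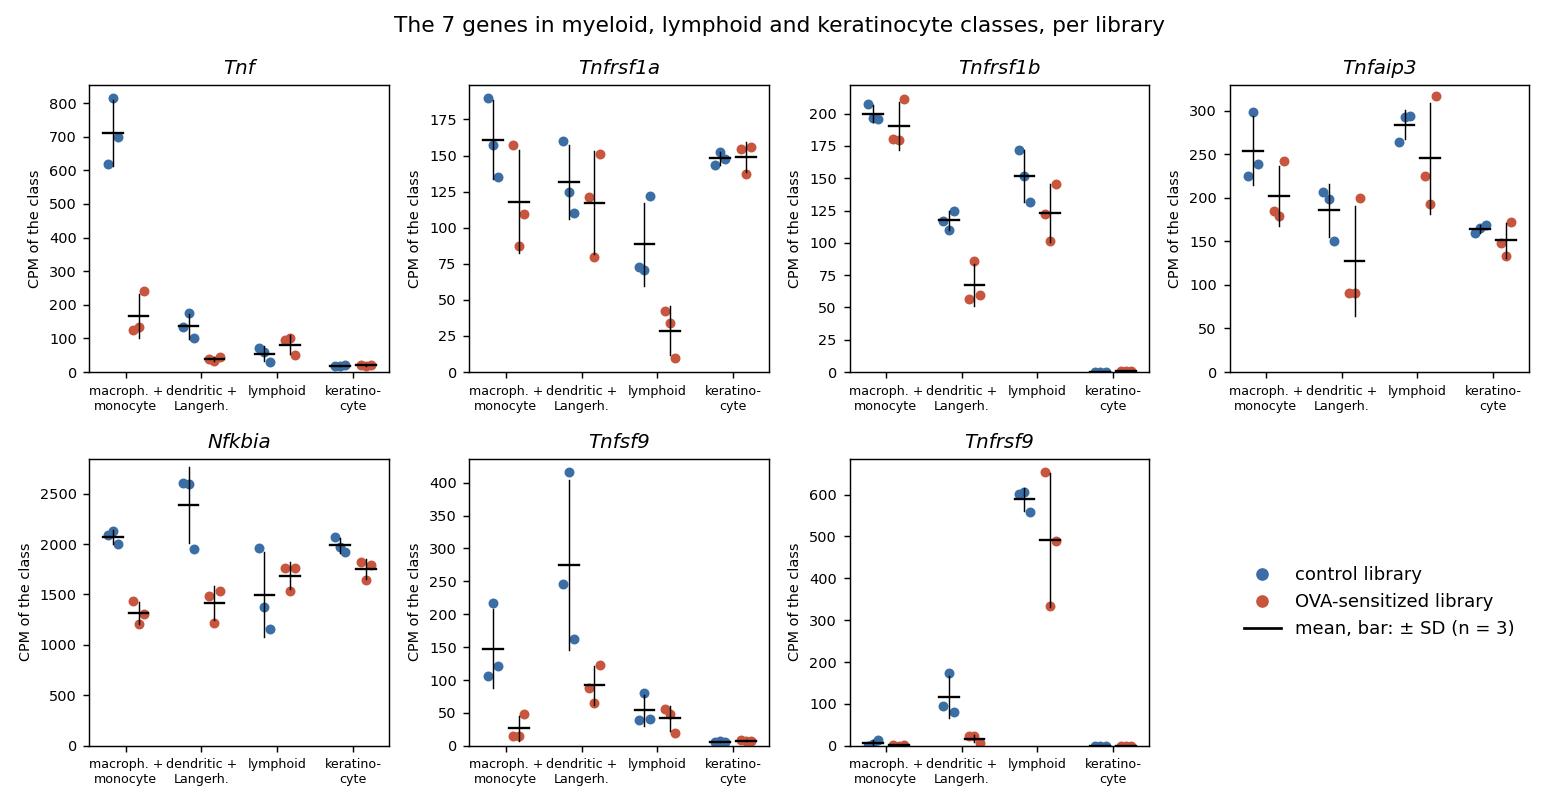
CPM of the 7 genes in 4 cell classes, 1 point per library, with the mean as a line and ± SD as a bar (n = 3). In the macrophage and monocyte class the OVA-sensitized points of Tnf (124, 133 and 242 CPM) lie below the control points (619, 814 and 698 CPM), and in dendritic and Langerhans cells those of Tnfrsf9 do too.

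Dendritic and Langerhans cells, 217 and 365 in the groups, were lower after OVA for 5 of the 7 genes. Tnf was 133, 174 and 101 CPM in control libraries and 38.6, 33.2 and 44.7 CPM in OVA-sensitized libraries, a log2 fold of -1.81 ± 0.25 SE without overlap. Tnfsf9 was 246, 416 and 162 CPM and 87.8, 64.8 and 123 CPM, a log2 fold of -1.59 ± 0.29 SE without overlap. Nfkbia was 2608, 2599 and 1954 CPM and 1487, 1219.9 and 1536 CPM, so its OVA-sensitized libraries were also all lower (log2 fold -0.76 ± 0.13 SE). For the 4-1BB receptor, Tnfrsf9 was 93.8, 174 and 81.2 CPM in the controls and 22.8, 22.6 and 6.38 CPM after OVA, a log2 fold of -2.65 ± 0.38 SE. Tnfrsf1b was 117, 110.2 and 125 CPM and 56.2, 86 and 59.6 CPM, with a log2 fold of -0.79 ± 0.22 SE. These 5 of the 7 tested passed the threshold, beside 6.68% of all genes tested in the class in that direction. Tnfrsf1b did not pass without control library 1, 2 or 3 (log2 fold -0.77, -0.84 and -0.72) and without OVA-sensitized library 1 or 3 (-0.66 and -0.70). Tnfaip3 (207, 199 and 151 CPM and 91.3, 90.5 and 199.9 CPM) overlapped, and without OVA-sensitized library 3 its log2 fold of -0.57 ± 0.27 SE became -1.0 and passed.

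The makeup of this class differed between the groups. Langerhans cells were 47 of 217 control cells and 18 of 365 OVA-sensitized cells, type 1 conventional dendritic cells 54 and 165, type 2 conventional dendritic cells 107 and 153, and migratory dendritic cells 9 and 29. Langerhans cells held Tnf in both groups, at 235 CPM (56 UMIs) and 279 CPM (23 UMIs), and the share with a Tnf UMI was 31 of 47 cells (66%, 95% interval 50.7 to 79.1%) and 10 of 18 cells (55.6%, 95% interval 30.8 to 78.5%). Their Tnfrsf9 was 307 CPM from 73 UMIs in controls and 109 CPM from 9 UMIs after OVA. The whole class held 51 control Tnfrsf9 UMIs in cells with a Tnf UMI and 50 in cells without, and 4 and 27 after OVA. Most of its control Tnfrsf9 UMIs thus lay in Langerhans cells. In type 2 conventional dendritic cells Tnf was 117, 207 and 129 CPM in the controls and 60.6, 35.1 and 73.9 CPM after OVA (log2 fold -1.51 ± 0.38 SE), and Tnfsf9 452, 927 and 388 CPM and 156, 140.5 and 361 CPM (log2 fold -1.51 ± 0.33 SE), neither with overlap. Tnfsf9 was among the 10 genes that led that cluster. Type 1 cells had little Tnf, 20.8, 30.6 and 18.4 CPM and 29.3, 7.65 and 19.7 CPM, and their Tnfrsf9 counts were 3 and 1 UMIs. The part of this makeup in the difference of the joined class was not tested, beyond the values within each type given here.

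Over the whole myeloid class, which adds plasmacytoid and unnamed myeloid cells, 5 of the 7 genes were lower and past the threshold, beside 5.83% of all genes tested. These were Tnf, Tnfsf9, Tnfrsf9, Nfkbia and Tnfrsf1b. The makeup of the class differed between the groups. Macrophages were 469 of 758 control and 536 of 1246 OVA-sensitized cells, monocytes 24 and 204, type 1 conventional dendritic cells 54 and 165 and plasmacytoid cells 0 and 25. The part of this makeup in the differences of the whole class was not tested. Tnf was 322, 417 and 356 CPM in the controls and 62.2, 62.8 and 115 CPM after OVA. The call on Tnfrsf1b (148, 141 and 160.3 CPM and 97, 116 and 117 CPM) was lost without any 1 of control libraries 1, 2 and 3 (log2 fold -0.50, -0.52 and -0.42) or OVA-sensitized libraries 1 and 3 (-0.38 and -0.51). With cells of high doublet score kept, the log2 fold was -0.28 and did not pass. Tnfaip3 (210.5, 235 and 194 CPM and 133, 125 and 217 CPM) did not pass, with a log2 fold of -0.47 ± 0.18 SE, but did so without OVA-sensitized library 3 (-0.74).

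In dermal gamma-delta T cells, by contrast, Tnf was higher after OVA, from few molecules. These are T cells of the dermis with a gamma-delta receptor, here 68 control and 60 OVA-sensitized cells with 16 and 41 Tnf UMIs, and Tnf was among the 10 genes that led their cluster. The levels were 105, 95.2 and 76.3 CPM in the controls and 335, 341 and 123 CPM in the OVA-sensitized libraries, which did not overlap, though library 3 lay close to the controls. The share with a Tnf UMI was 11 of 68 cells (16.2%, 95% interval 8.36 to 27.1%) and 23 of 60 cells (38.3%, 95% interval 26.1 to 51.8%), and 7.81% and 25% after thinning, with 4 shallower cells left out in each group. Too few molecules were counted for Tnf to pass the filter on low counts in this class, so no fold was fitted. Across all lymphoid cells Tnf was 72.8, 60.6 and 30.4 CPM and 93.9, 101 and 50.3 CPM, and the groups overlapped.

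Tnfrsf9, the 4-1BB receptor, was 602, 606 and 558 CPM in lymphoid cells of the controls and 653, 333 and 488 CPM after OVA. The groups overlapped (log2 fold -0.24 ± 0.21 SE), and the share with a UMI was 66 of 154 cells (42.9%, 95% interval 34.9 to 51.1%) and 105 of 266 cells (39.5%, 95% interval 33.6 to 45.6%), or 33.8% and 26.9% after thinning. Keratinocytes, which should lack the receptor, had 0.114% and 0.251%, at medians of 7234 and 7628 UMIs against 2048 and 1914 in lymphoid cells. Regulatory T cells, named from Foxp3 and other markers, held a Tnfrsf9 UMI in 12 of 12 cells (100%, 95% interval 73.5 to 100%) of the control and 27 of 36 cells (75%, 95% interval 57.8 to 87.9%) of the OVA-sensitized group. Their pooled levels were 4253 and 1423 CPM, from 88 and 109 UMIs. NK cells after OVA held it in 9 of 28 cells (32.1%, 95% interval 15.9 to 52.4%), none of them in OVA-sensitized library 3, and no Tnf UMI was counted in these 28 cells, which allows a share of cells with a UMI of up to 10.7% (3 cells of 28) and sets no limit on cells that express the gene.

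Tnfrsf1a was low in lymphoid cells after OVA, 72.8, 70.7 and 122 CPM in the controls and 42.3, 33.8 and 10.1 CPM in OVA-sensitized libraries, from 30 and 18 UMIs (log2 fold -1.52 ± 0.49 SE). The libraries did not overlap, but the gene did not pass the threshold over all genes. None of the 6 genes tested in lymphoid cells passed in edgeR, beside 1.32% of all genes, and DESeq2 called 0. In edgeR 1 had an unadjusted p under 0.05, a level at which the share of all genes was not counted.

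**Figure D4:**
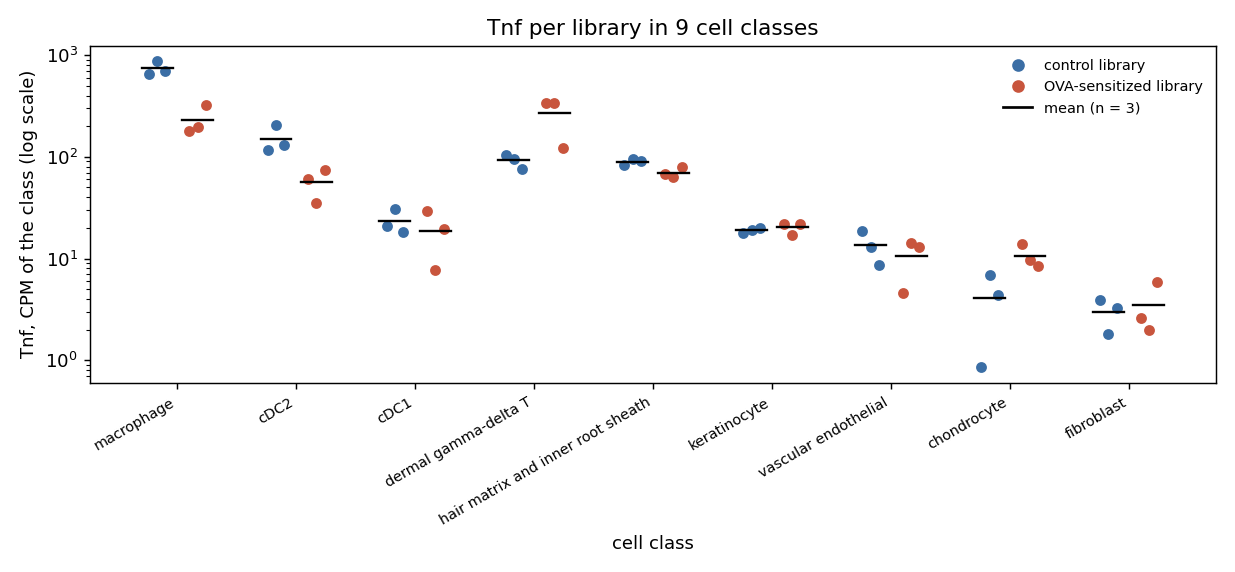
Tnf in CPM on a log axis in 9 cell classes, 1 point per library with the mean as a line (n = 3). The OVA-sensitized points lie below the controls in macrophages (181, 194 and 319 CPM against 655, 868 and 689 CPM) and above them in dermal gamma-delta T cells (335, 341 and 123 CPM against 105, 95.2 and 76.3 CPM).

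Outside the immune classes, fitted log2 folds of genes whose groups did not overlap ran from -0.83 for Tnfaip3 in sebocytes to 1.43 for Tnf in chondrocytes. Keratinocyte Tnf was 17.9, 19.2 and 20.1 CPM in the controls and 21.8, 17 and 21.9 CPM after OVA, with overlapping groups. Hair matrix and inner root sheath cells had 82.9, 94.5 and 90.4 CPM and 67.1, 62.7 and 79.4 CPM, lower without overlap (log2 fold -0.34 ± 0.14 SE). Nfkbia in keratinocytes was 2068, 1970.2 and 1925 CPM and 1826, 1641 and 1793 CPM, lower in every OVA-sensitized library (log2 fold -0.18 ± 0.05 SE). Keratinocyte Tnfsf9 was 6.03, 7.10 and 5.18 CPM and 8.46, 7.37 and 7.72 CPM, a low level that was higher in every OVA-sensitized library (log2 fold 0.36 ± 0.15 SE). Nfkbia was also lower without overlap in fibroblasts, hair matrix, lymphatic endothelium, pericytes and sebocytes, with log2 folds from -0.28 to -0.13. Fibroblast Nfkbia was 2570.0, 2454 and 2348 CPM and 2304, 2064 and 2265 CPM (log2 fold -0.13 ± 0.06 SE). Fibroblast Tnfrsf1a was 194, 186 and 174 CPM and 155, 144 and 168 CPM, lower without overlap (log2 fold -0.22 ± 0.07 SE). In vascular endothelium Tnfaip3 was 322, 299 and 336 CPM and 366, 361 and 422 CPM, higher in every OVA-sensitized library (log2 fold 0.24 ± 0.09 SE), while Nfkbia there overlapped. Chondrocyte Tnf was 0.854, 6.93 and 4.43 CPM and 13.8, 9.78 and 8.52 CPM from 13 and 45 UMIs, higher without overlap (log2 fold 1.43 ± 0.46 SE, or 2.01 without control library 2). Sebocyte Tnfaip3 was 91.1, 73.3 and 76.5 CPM and 37.7, 48.9 and 49.1 CPM, lower without overlap (log2 fold -0.83 ± 0.19 SE). The first TNF receptor was lower in lymphatic endothelium, Tnfrsf1a at 300.4, 284 and 307 CPM and 231, 195 and 198 CPM (log2 fold -0.52 ± 0.12 SE), and in pericytes and smooth muscle at 273, 319 and 318 CPM and 242, 239 and 247 CPM (log2 fold -0.36 ± 0.13 SE).

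None of the set passed the threshold in keratinocytes, fibroblasts or vascular endothelium. In keratinocytes 0 of 5 genes tested with edgeR passed, beside 3.43% of all genes, and 2 had an unadjusted p under 0.05. Fibroblasts had 0 of 6 past the threshold, beside 4.76% of all genes, and 4 under 0.05 unadjusted. Vascular endothelium had 0 of 5, beside 3.01%, and 2 under 0.05 unadjusted. The share of all genes under 0.05 unadjusted was not counted, so nothing is read from those counts. DESeq2 called 0 of the set in each of these classes. In lymphatic endothelium 1 of 3 tested passed in edgeR, Tnfrsf1a, beside 1.16% of all genes called. It did not pass under 9 of 13 alternatives, among them leaving out any 1 of the 6 libraries and DESeq2, with log2 folds from -0.58 to -0.47.

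**Figure D5:**
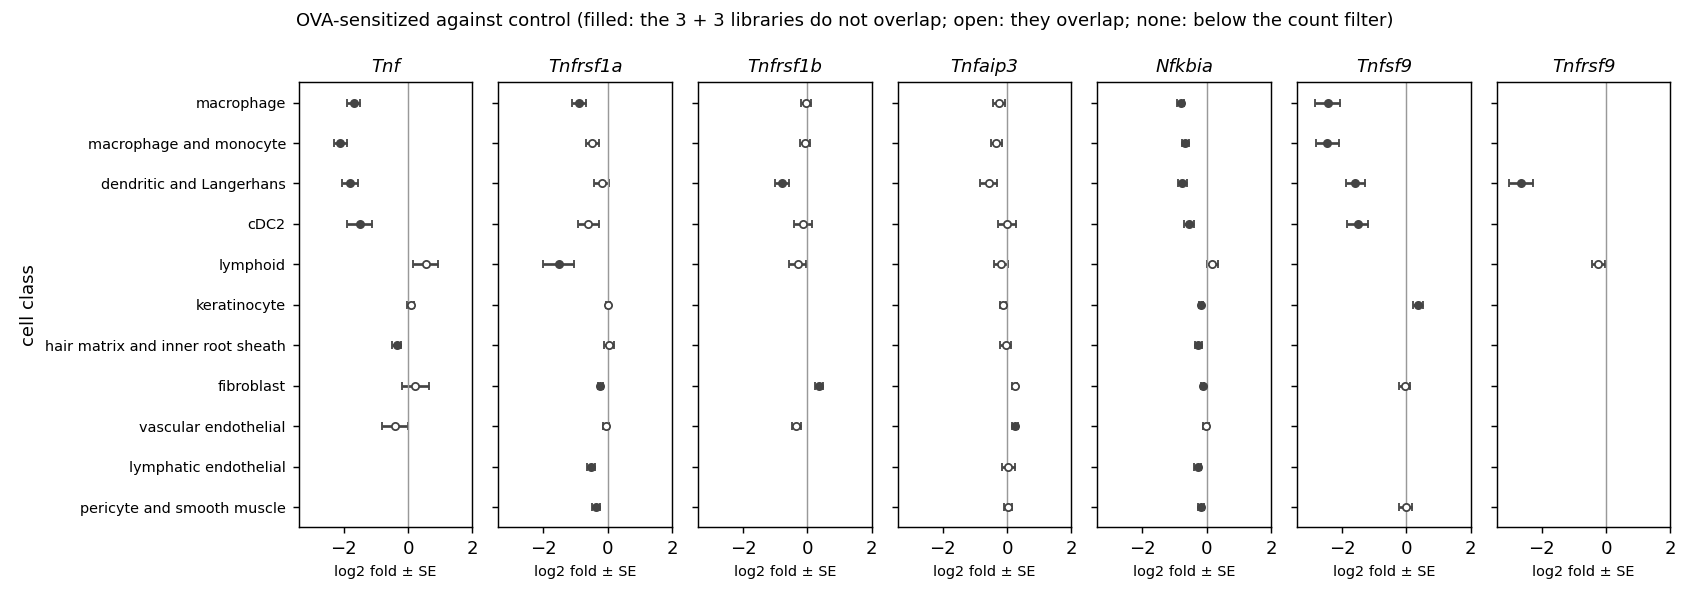
Log2 fold of OVA-sensitized against control with its SE for each gene (panels) in 11 cell classes (rows). Filled points mark classes in which the 3 libraries of one group do not overlap those of the other, and no point means too few counts. The points far to the left are those of myeloid classes, such as Tnf at -2.10 and Tnfsf9 at -2.46 in the macrophage and monocyte class.

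Summed over all cells other than myeloid cells, where fewer cells of a type and less RNA per cell cannot be told apart, Tnfrsf1b was 8.80, 7.90 and 7.77 CPM in the controls and 15.2, 13.7 and 14.2 CPM after OVA (log2 fold 0.76 ± 0.07 SE). Tnfsf9 was 33.7, 37.3 and 28.9 CPM in the controls and 46.1, 39.7 and 63.7 CPM after OVA, and Tnfrsf9 3.47, 2.74 and 2.38 CPM in the controls and 7.06, 3.61 and 5.05 CPM after OVA. These 3 were higher without overlap, as was Tnfaip3 at 168, 171 and 176 CPM in the controls and 194, 179.7 and 221 CPM after OVA, whereas Tnf was 15.7, 17.3 and 16.5 CPM in the controls and 14.2, 13.1 and 15.8 CPM after OVA, with overlapping groups. The share of all genes without overlap in this sum is not given, so nothing is read from how many of the set showed none. Tnfrsf1b, Tnfsf9, Tnfrsf9 and Tnf passed the threshold, among 43.5% of all genes. Tnf lost its call without control library 2 or 3 (log2 fold -0.22 and -0.25) or OVA-sensitized library 1 or 2 (-0.23 and -0.22). Tnfsf9 lost it without control library 1 or 3 (0.53 and 0.44), and Tnfrsf9 without control library 2 or 3 (0.78 and 0.70) or OVA-sensitized library 1 (0.56). Keratinocytes, which hold almost no Tnfrsf1b, were 39.2% of control and 21.8% of OVA-sensitized cells, and within fibroblasts Tnfrsf1b was 13.8, 14.6 and 12.5 CPM and 19.9, 15.3 and 16.4 CPM, within vascular endothelium 82.5, 69.3 and 90.6 CPM and 72.1, 60.9 and 59.7 CPM.

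Over all kept cells, myeloid cells included, Tnf was 23, 27 and 25.7 CPM in the controls and 16.8, 16 and 21 CPM after OVA (log2 fold -0.55 ± 0.10 SE), and Tnfrsf1b 12.1, 11.1 and 11.9 CPM and 19.6, 19.6 and 19.5 CPM (log2 fold 0.69 ± 0.06 SE). The share of myeloid cells went from 5.63% to 11.4%, while Tnf was lower in the sum. These 2 of 7 passed the threshold, beside 44.8% of all genes. Nfkbia, at 2460.2, 2354 and 2253 CPM and 2486, 2264 and 2433 CPM, overlapped in the sum.

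The 5 pathway lists used from here on were chosen with earlier results of these data known. Their counts, folds and p-values are therefore given as a description. Many genes that NF-kB is known to induce fell in the macrophage and monocyte class. Of 38 listed, 30 were tested, 14 fell and 3 rose past an adjusted p of 0.05 in edgeR's quasi-likelihood test, with a median log2 fold of -0.44 beside 0.00800 over all genes tested and 10.5% of all genes called. The neutrophil-attracting chemokine genes Cxcl1 and Cxcl2 fell, Cxcl1 from 2024 ± 546 to 491 ± 47.1 CPM (log2 fold -2.06 ± 0.16 SE, adjusted p = 3.32e-08) in edgeR. Cxcl2 fell from 4963 ± 906 to 1325 ± 318 CPM (log2 fold -1.92 ± 0.15 SE, adjusted p = 3.13e-08) in edgeR. Ccl20 fell from 46.4 ± 3.32 to 15.6 ± 3.47 CPM (log2 fold -1.56 ± 0.37 SE, adjusted p = 0.00665), while Vcam1, an adhesion molecule gene, rose from 13.4 ± 1.36 to 57.2 ± 9.86 CPM (log2 fold 2.05 ± 0.38 SE, adjusted p = 0.000903), both in edgeR. DESeq2 did not call Ccl20 (log2 fold -1.58). Signalling and NF-kB machinery genes gave no call: of 20 tested, 0 rose and 0 fell in edgeR, 3 had an unadjusted p under 0.05 and DESeq2 called 0. Among them the kinase gene Ripk1 went from 61.3 ± 8.79 to 35 ± 3.90 CPM (log2 fold -0.81 ± 0.29 SE, adjusted p = 0.0823) and Tnip2 from 79.5 ± 16.6 to 51.9 ± 15.7 CPM (log2 fold -0.63 ± 0.28 SE, adjusted p = 0.172) in edgeR. In macrophages alone 11 NF-kB induced genes fell and 1 rose of 28 tested, with a median log2 fold of -0.58 (all genes 0.013). Monocytes were 24 of the 493 control and 204 of the 740 OVA-sensitized cells of the joined class, and their part in its falls was not tested.

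Other TNF superfamily ligands in this class were Tnfsf12, 158 ± 15.5 and 105 ± 39.8 CPM (log2 fold -0.62 ± 0.23 SE, adjusted p = 0.0967), and Tnfsf13, 46 ± 10.4 and 51.3 ± 12.7 CPM (log2 fold 0.12 ± 0.30 SE, adjusted p = 0.877), both in edgeR. Without OVA-sensitized library 1 the log2 fold of Tnfsf12 was -0.87 and passed. These were the 2 tested of 16, neither passed in edgeR, 1 had an unadjusted p under 0.05 and DESeq2 called 0. Of 6 other receptors tested, 1 fell, beside 10.5% of all genes called in the class. This was the TWEAK receptor gene Tnfrsf12a, from 129 ± 16.2 to 74.6 ± 7.49 CPM (log2 fold -0.79 ± 0.20 SE, adjusted p = 0.0142) in edgeR. In fits of 5 libraries Tnfrsf12a did not pass when control library 1 or 2 was the one left out (-0.78 and -0.73) or OVA-sensitized library 1 (-0.71). DESeq2 did not call it either (-0.79).

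Genes that tissue dissociation is known to raise fell too in this class. Of 25 tested of 26, 11 fell and 1 rose in edgeR, beside 10.5% of all genes called. The median log2 fold was -0.47, beside 0.008 over all genes tested. The summed level of the list was 12429 to 13342 CPM in control libraries and 9512 to 10598 CPM in OVA-sensitized libraries, and 0 of its genes were at 0 in some library. Jund fell from 1929 ± 145 to 960.0 ± 73.4 CPM (log2 fold -1.02 ± 0.12 SE, adjusted p = 2.87e-06), Fosb from 472 ± 46.9 to 241 ± 34.4 CPM (log2 fold -0.99 ± 0.15 SE, adjusted p = 0.000129), Atf3 from 265 ± 32.3 to 142 ± 47.2 CPM (log2 fold -0.90 ± 0.20 SE, adjusted p = 0.00458) and Hspb1 from 72 ± 9.37 to 30.3 ± 13.3 CPM (log2 fold -1.28 ± 0.32 SE, adjusted p = 0.0112), all in edgeR. The call on Hspb1 was lost without control library 3 (log2 fold -1.17). In macrophages alone 5 fell and 0 rose of 25 tested, with a median log2 fold of -0.39 (all genes 0.013). The summed level there was 12368 to 13432 CPM in control libraries and 9809 to 11205 CPM in OVA-sensitized libraries. The part of dissociation in the differences of Tnf, Tnfsf9 and Nfkbia was not tested, nor was that of the monocytes in the joined class.

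In dendritic and Langerhans cells NF-kB induced genes numbered 16 down and 0 up of 30 tested (median log2 fold -0.82, all genes 0.0150), beside 11.9% of all genes called by edgeR. Cxcl2 fell from 2802 ± 694 to 488 ± 167 CPM (log2 fold -2.51 ± 0.23 SE, adjusted p = 9.81e-06), Cxcl1 from 879 ± 124 to 178 ± 35.3 CPM (log2 fold -2.31 ± 0.18 SE, adjusted p = 4.52e-06), Tnfaip2 from 479 ± 50.0 to 151 ± 44.2 CPM (log2 fold -1.65 ± 0.20 SE, adjusted p = 0.000137) and Ccl5 from 515 ± 172 to 166 ± 97 CPM (log2 fold -1.64 ± 0.36 SE, adjusted p = 0.00625), by edgeR. Of 22 machinery genes 5 fell and 0 rose in edgeR, against 2 that fell in DESeq2, which did not call Rela or Nfkb2. DESeq2 did not call Ccl5 or Fas either. Tnip1, which encodes a partner of A20, fell from 154 ± 12.3 to 47.1 ± 1.67 CPM (log2 fold -1.70 ± 0.20 SE, adjusted p = 0.000101), and the NF-kB subunit genes Rela, Relb and Nfkb2 fell by 0.88 (adjusted p = 0.0189), 0.76 (adjusted p = 0.00955) and 0.70 (adjusted p = 0.0255) on the log2 scale in edgeR. The calls on Rela and Nfkb2 were lost without OVA-sensitized library 1 (-0.91 and -0.54) or control library 2 (-0.70 and -0.61), that on Rela also without OVA-sensitized library 3 (-0.77), that on Nfkb2 without control library 3 (-0.72), and that on Relb without control library 2 (-0.66). Of 4 other receptors tested 3 fell: Tnfrsf12a from 121 ± 9.82 to 46.6 ± 9.99 CPM (log2 fold -1.37 ± 0.22 SE, adjusted p = 0.00095), Fas from 69 ± 13.1 to 35.6 ± 11.4 CPM (log2 fold -0.98 ± 0.29 SE, adjusted p = 0.0384) and Cd40, the receptor for T-cell help and also in the NF-kB induced list, from 287 ± 49.4 to 174 ± 3.29 CPM (log2 fold -0.73 ± 0.17 SE, adjusted p = 0.0093), by edgeR. Fas lost its call without control library 1, 2 or 3 (-1.03, -1.08 and -0.78) or OVA-sensitized library 1 (-0.74), and Cd40 without control library 3 (-0.62). The only other ligand tested, Tnfsf12, was 35.8 ± 9.82 and 16.6 ± 9.18 CPM (log2 fold -1.0 ± 0.43 SE, adjusted p = 0.153) in edgeR. Dissociation genes were 9 down and 0 up of 25 tested, with a summed level of 12052 to 14645 CPM in controls and 9929.8 to 10394 CPM after OVA, and 0 at 0 in some library. Dnaja1 fell from 758 ± 129 to 362 ± 33.4 CPM (log2 fold -1.06 ± 0.16 SE, adjusted p = 0.000488) and Dusp1 from 554 ± 32.3 to 325 ± 18.6 CPM (log2 fold -0.77 ± 0.14 SE, adjusted p = 0.0022), by edgeR, and the part of this in the falls of the class was not tested. The part of the changed makeup of the class was not tested either. Within type 1 and type 2 conventional dendritic cells, with fewer cells, edgeR called 0 of 23 and 0 of 21 dissociation genes (median log2 fold -0.21 and -0.34). NF-kB induced genes fell there for 3 of 18 and 7 of 26 tested (median -0.54 and -0.63, all genes -0.005 and -0.013). Machinery genes fell for 1 of 14 and 0 of 12.

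Lymphoid cells gave few calls in these lists. Of all genes tested in this class 1.32% were called, and each count of list genes called in the paragraph stands against that share. Counts at an unadjusted p do not, since the share of all genes at that level was not counted. Among NF-kB induced genes, 1 rose and 1 fell of 15 tested: the chemokine gene Ccl5 rose from 25.7 ± 15.2 to 677 ± 373 CPM (log2 fold 4.71 ± 0.56 SE, adjusted p = 0.000172) and Marcksl1 fell from 191 ± 25.8 to 85.3 ± 16.7 CPM (log2 fold -1.13 ± 0.27 SE, adjusted p = 0.0441), in edgeR. Ccl5 was among the 10 genes that led the NK cluster. NK cells were 3 of 154 control and 28 of 266 OVA-sensitized lymphoid cells. The part of this change in makeup in the lymphoid calls was not tested. The phosphatase gene Dusp2, of the dissociation list, rose from 89.3 ± 40.4 to 230.0 ± 48 CPM (log2 fold 1.39 ± 0.30 SE, adjusted p = 0.0252) in edgeR, as the single call among 23 tested. Leaving out 1 library ended the call on Marcksl1 for control libraries 1 to 3 (-1.10, -1.06 and -1.23) and OVA-sensitized libraries 2 and 3 (-1.12 and -1.01), and that on Dusp2 for control libraries 1 and 3 (1.35 and 1.15) and OVA-sensitized libraries 1 and 2 (1.24 and 1.37). No gene passed among 16 machinery genes, 3 ligands and 6 receptors in edgeR, with 3, 1 and 2 at an unadjusted p under 0.05, and DESeq2 called 0, 0 and 0. The OX40 gene Tnfrsf4 was 368 ± 173 and 633 ± 107 CPM (log2 fold 0.79 ± 0.26 SE, adjusted p = 0.198), and the lymphotoxin gene Ltb 2728 ± 520.0 and 1937 ± 367 CPM (log2 fold -0.47 ± 0.15 SE, adjusted p = 0.202), in edgeR.

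Summed over all kept cells the NF-kB induced genes numbered 22 up and 5 down of 37 tested, with a median log2 fold of 0.56, beside -0.00200 for all genes. Of all genes tested here 44.8% were called, and each list count of the paragraph stands against that share. Sele, the gene of E-selectin, rose from 7.85 ± 0.872 to 21.7 ± 2.68 CPM (log2 fold 1.41 ± 0.12 SE, adjusted p = 6.2e-05) and Ptgs2, of cyclooxygenase-2, from 27.9 ± 2.06 to 62 ± 2.85 CPM (log2 fold 1.10 ± 0.06 SE, adjusted p = 1.46e-05), in edgeR. Il1b rose from 112 ± 2.14 to 247 ± 1.44 CPM (log2 fold 1.09 ± 0.05 SE, adjusted p = 6.5e-06) and Vcam1 from 100.4 ± 7.50 to 221 ± 9.24 CPM (log2 fold 1.08 ± 0.07 SE, adjusted p = 2.81e-05), in edgeR. Of the machinery 11 rose and 6 fell of 40, a share near that of all genes, among them Traf1 from 12.4 ± 0.324 to 30.6 ± 1.25 CPM (log2 fold 1.24 ± 0.05 SE, adjusted p = 6.5e-06) and Birc3 from 60.6 ± 2.69 to 85.6 ± 6.34 CPM (log2 fold 0.44 ± 0.05 SE, adjusted p = 0.000388), in edgeR. Other ligands numbered 7 up and 0 down of 11 and other receptors 11 up and 5 down of 19, with Ltb rising from 14.6 ± 0.542 to 24.8 ± 4.42 CPM (log2 fold 0.70 ± 0.10 SE, adjusted p = 0.00105) and the GITR gene Tnfrsf18 falling from 47.3 ± 3.23 to 34.3 ± 1.61 CPM (log2 fold -0.52 ± 0.05 SE, adjusted p = 0.00012), in edgeR. Of the dissociation genes 4 rose and 12 fell of 26. Cell classes changed in number between the groups, and their part in these sums was not tested.

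Basophils and neutrophils, nearly absent from the controls, also held Tnf after OVA. In 45 cells of the basophil and mast class of the OVA-sensitized libraries (1 in controls) there were 25 Tnf UMIs, or 325 CPM, in 8 of 45 cells (17.8%, 95% interval 8.0 to 32.1%). In 63 neutrophils (3 in controls) there were 36, or 743 CPM, in 17 of 63 cells (27%, 95% interval 16.6 to 39.7%) at a median of 644 UMIs. Neutrophil Tnfrsf1b was 599 CPM and Nfkbia 7162 CPM after OVA. With 1 and 3 control cells no comparison between the groups was made.

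Genes with the most similar pattern over the 13 classes were found by Pearson's correlation of log2(mean CPM + 1), as a description over classes that share libraries. For Tnf they were Smarcad1 (r = 0.90), Fam49b (r = 0.88) and Abi1 (r = 0.87). For the receptors they were Tubb6 (r = 0.96), Rras (r = 0.93) and Samd4b (r = 0.93) with Tnfrsf1a, and Mir155hg (r = 0.93), H2-M3 (r = 0.90) and Stat5b (r = 0.89) with Tnfrsf1b. Nfkbia was followed by Icam1 (r = 0.95), Kctd17 (r = 0.91) and Ogfr (r = 0.89), and Tnfaip3, less closely, by Mgmt (r = 0.84), Zc3h12a (r = 0.82) and Ripk3 (r = 0.80). Tnfsf9 was followed by Pianp (r = 0.95), Akr1b10 (r = 0.89) and Nr4a3 (r = 0.89). The pattern of Tnfrsf9 was nearest to those of Itgae (r = 0.98), Klrd1 (r = 0.98) and Klrk1 (r = 0.98).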

How the data were processed

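The files hold UMI counts per gene and cell barcode for 6 libraries, as deposited by the authors, made with Cell Ranger 3.1.0 per the file headers and with STAR and mm10 per the submitters' processing notes. Of 38206 barcodes 24432 were kept: at least 300 genes, at most 15% mitochondrial UMIs, and not among the top doublet scores of Scrublet at 0.8% per 1000 barcodes. That rule was set after the caller's own threshold marked 0.0260 to 0.304%. Filters on genes and mitochondrial UMIs left out 29.9 to 35.9% of a library's barcodes, and median depth was 4528 to 5193 UMIs. Cells were clustered (scanpy 1.11.5, 2000 variable genes, 40 components, Leiden) and named from at least 3 markers; names are rebuilt here and may differ from the study's. Macrophage with dendritic lists were joined as myeloid, a Foxp3 rule was added for regulatory T cells, and the split of macrophages by a Tnf UMI was made, after clusters or values were seen.

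UMIs were summed per class and library and fitted over all genes with edgeR 4.0.16 (filterByExpr, TMM, quasi-likelihood test, Benjamini-Hochberg, threshold 0.05), with DESeq2 1.42.0 as an alternative. Classes needed 10 cells in every library. The fits were tested on simulated data. The 7 genes and the 5 pathway lists were chosen with earlier results of these data known. Named list genes are up to 4 past the threshold with the largest log2 fold and at least 20 CPM in the higher group, or the 2 with the smallest p where none passed, with a part of them printed. Alternatives are named in the closing section. The split into groups follows the treatment label.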

Additional observations from a re-analysis of the deposited data

Results flagged for a closer look

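For Tnf, Tnfrsf1b, Tnfaip3 and Tnfsf9, every OVA-sensitized library lay below every control library in some cell classes and above in others. The share of all genes that did so was not counted, so nothing is read from how many of the set did. The values are ratios of mean CPM, OVA-sensitized over control, and the differences between classes were not tested. Tnf was lower in hair matrix and inner root sheath cells (ratio 0.781), macrophages (0.314) and dendritic and Langerhans cells (0.285). It was higher in dermal gamma-delta T cells (2.89) and chondrocytes (2.63), from few UMIs in both.

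Tnfrsf1b was lower in dendritic and Langerhans cells (ratio 0.573) and higher in fibroblasts (1.26) and keratinocytes (3.89), in the last from 8 and 16 UMIs. Tnfaip3 was lower in sebocytes (0.563) and higher in vascular endothelium (1.20). Tnfsf9 was lower in macrophages (0.184) and in dendritic and Langerhans cells (0.335) and higher in keratinocytes (1.29).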

How the results depend on the processing

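In macrophages and monocytes the calls on Tnf, Tnfsf9 and Nfkbia, and in dendritic and Langerhans cells those on Tnf, Tnfsf9, Nfkbia and Tnfrsf9, kept their direction and side of the threshold under DESeq2, size factors in place of TMM, no filter on low counts, stricter filters on cells (under 10% mitochondrial UMIs, at least 1000 UMIs), the replicate block and leaving out each library. Since the 7 genes were selected on these differences, nothing is read from that. Keeping cells with high doublet scores was tried only for classes of the first clustering, since the finer classes hold none of them. DESeq2 called 339 genes in fibroblasts against 551 with edgeR, 18 against 36 in lymphoid cells, 361 against 693 in myeloid cells, 148 against 233 in vascular endothelium, 241 against 416 in macrophages and monocytes and 290 against 484 in dendritic and Langerhans cells. With no filter on low counts 1021 were called in fibroblasts, where 1 of the 7 genes (Tnfaip3) then passed, 741 in keratinocytes against 402, 110 in lymphoid cells and 465 in vascular endothelium. Listed pathway genes called in lymphoid cells numbered 3, but 1 with DESeq2, 1 with at least 1000 UMIs a cell, 5 with no filter and 5 with the replicate block. Whether replicate numbers pair the libraries is not stated by the labels and cannot be settled with 3 libraries a group. Deviations from the group means of libraries with the same number correlated at 0.09, 0.05 and -0.04 over 14924 genes. Control libraries 1 and 2 correlated best with their own number, control library 3 with OVA-sensitized library 2 (0.07). With the replicate block 67 genes were called in lymphoid cells against 36, and the other counts of genes called stayed within 1.5 times. The block brought Tnfaip3 past the threshold in myeloid cells (log2 fold -0.49) and in cells other than myeloid (0.15), and no filter on low counts did so in myeloid cells too (-0.42). The call on Tnfrsf1b ended with DESeq2 (-0.80 in dendritic and Langerhans, -0.48 in myeloid cells) and with no filter (-0.72 and -0.43), and that on Tnf in cells other than myeloid with DESeq2 (-0.25). In myeloid cells the call on Tnfrsf1b also ended with doublets kept (-0.28) and under 10% mitochondrial UMIs (-0.44), and in cells other than myeloid that on Tnfrsf9 ended with at least 1000 UMIs (0.62). DESeq2 called 2 machinery genes lower in dendritic and Langerhans cells against 5 with edgeR. With doublets kept, levels moved in classes of low level or few cells: Tnfsf9 in lymphatic endothelium to 2.61 CPM, Tnf, Tnfrsf1b and Tnfrsf9 in sebocytes to 3.69, 2.29 and 0.490 CPM, and Tnfaip3 and Nfkbia in Schwann cells to 52.6 and 1747 CPM. Thinned to 1000 UMIs, shares of cells with a Tnf UMI were 35.6% and 15.8% in macrophages of control and OVA-sensitized libraries, 11.4% and 4.89% in dendritic and Langerhans cells, 1.66% and 1.84% in keratinocytes, and 7.81% and 25% in dermal gamma-delta T cells, all lower than unthinned. The thinned shares for Tnfrsf9 were 26.9% in lymphoid cells after OVA, and 0% and 0.0429% in keratinocytes. Thinning leaves fewer UMIs a cell, so fewer cells hold one.

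Leaving out 1 library in turn gave these ranges of genes called: 5149 to 5993 over all kept cells, 4885 to 5676 without myeloid cells, 84 to 359 in keratinocytes (lowest without control library 3), 305 to 447 in fibroblasts, 141 to 276 in vascular endothelium, 18 to 39 in lymphoid cells, 420 to 592 in myeloid cells, 292 to 361 in macrophages and monocytes and 292 to 473 in dendritic and Langerhans cells. Of the 7 genes, 2 to 3 passed over all kept cells, 1 to 4 without myeloid cells (lowest without control library 3), 4 to 5 in myeloid cells, 3 to 4 in macrophages and monocytes, 4 to 5 in dendritic and Langerhans cells and 0 in keratinocytes, fibroblasts, vascular endothelium and lymphoid cells. Listed pathway genes ranged over 66 to 77 in all kept cells, 23 to 30 in macrophages and monocytes, 22 to 35 in dendritic and Langerhans cells and 1 to 2 in lymphoid cells. In macrophages and monocytes the log2 fold of Tnfsf13, which passed in no fit, was 0.12 and ranged from -0.082 (without OVA-sensitized library 1) to 0.26 (without control library 1) when 1 library was left out, with -0.039 without control library 2. Where a single tool or setting moved a count, the cause was not tested, beyond the smaller number of libraries or genes.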
